A study of Xenopus laevis with 5 samples.

Results

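Membrane traffic genes of the frog Xenopus laevis were followed in ectodermal explants in which the transcription factor zic1 was switched on after treatment with a blocker of protein synthesis. The genes were taken by symbol: Rab and Arf names followed by a digit, and names starting with vps, snx, sec and a digit, copa, copb, cope, copg, copz, tmed, stx, vamp, or snap and a digit. The rule used no measured value, but it was chosen with earlier results of these data known. It found 182 of the 15490 probe sets tested, which belong to 140 of 7530 gene copies with a single symbol and to 117 gene names. Xenopus laevis is an allotetraploid, and the suffixes .L and .S mark the 2 copies that its ancestors' genome merger left. Of the 117 names, 23 were measured in both copies and 94 in 1 copy. No member was lost to a filter.

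Both groups consisted of explants cut at stage 9 from embryos that had been injected at the 2-cell stage. The zic1 group (2 arrays) came from embryos given a hormone-inducible zic1, and the control group (3 arrays) from embryos given beta globin. Every embryo also received noggin, a BMP inhibitor that turns ectoderm neural, so the control tissue was neuralized as well. All explants were grown to the equivalent of stage 12, treated with cycloheximide for 30 min, which stops translation, and then with dexamethasone for 3 h, which releases the injected zic1. The comparison was thus aimed at transcripts that differ after zic1 activation without new protein. The groups differed in what was injected from the 2-cell stage on, so differences that arose before dexamethasone would be in it too. The labels call the arrays biological replicates without saying from which embryos or days they came, so the p-values measure only the spread between these arrays.

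Cells move membrane and cargo in vesicles. Newly made secretory proteins enter the endoplasmic reticulum (ER) through the Sec61 channel, leave it in COPII-coated vesicles and are sorted at the Golgi, from which COPI coats return proteins to the ER; p24 proteins (tmed) act as cargo receptors on both routes. Rab and Arf GTPases mark compartments and recruit coats and tethers, SNAREs (syntaxins, VAMPs, SNAPs) fuse the membranes, and sorting nexins, retromer and the ESCRT complexes sort cargo at endosomes. In neural ectoderm this machinery carries signalling receptors, adhesion proteins and secreted ligands.

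Each value is a linear ratio of a probe set's level to its own median over the 5 arrays, so 1 is that probe set's middle array, and levels of different genes could not be compared. The value of a gene copy averages the log2 ratios of all its probe sets and is given here back on the ratio scale. Differences are log2, zic1 minus control, ± the standard error (SE) of the limma fit, with n = 2 zic1 and 3 control arrays throughout. A gene copy counts as changed where limma's Benjamini-Hochberg adjusted p over all 7530 copies was under 0.05. The absolute signal was not kept, so presence of the tissue's defining markers could not be checked. In relative terms, 9 copies of 6 neural marker genes averaged 0.23 and 0.17 (log2) with zic1 and -0.05, -0.08 and -0.11 in controls. The zic1.S probe set that differed most stood at 5.28 and 5.07 with zic1 and at 0.699 to 1.00 in controls. The other zic1.S probe set stood at 1.68 and 1.76 with zic1 and at 0.815 to 1.00 in controls. The arrays were not evenly alike: zic1 replicate 1 and control replicates 1 and 2 shared 788 to 944 exactly equal values pair by pair, mostly at 1, and the other pairs shared 35 to 73. These 3 arrays are called the first set below, a grouping found in the values. The remaining 2, zic1 replicate 2 and control 3, are called the second set, although they shared only 43 equal values. A difference within the second set is therefore that of 1 zic1 array and 1 control array. The source of the sets cannot be told from the labels.

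Of the 140 gene copies, 1 rose and 1 fell. Rab40b.L, of a Rab family that carries a SOCS box and acts with Cullin5 in noncanonical Wnt signalling in Xenopus, was 2.68-fold higher in the zic1 explants (95% interval 1.83 to 3.92). Sec61a1.S, the pore-forming subunit of the channel into the ER, was 1.58-fold lower (1.36 to 1.84). These 2 copies are 1.43% of the members, against 1.93% of all gene copies past the same threshold (limma), so the share of changed copies was near that of the whole array. Probe set by probe set, 2 of 182 members passed (1.10%), against 1.41% of all probe sets. They belong to the same copies. The rise was 1 of 140 copies where 1.26% of all copies rose, and the fall 1 of 140 where 0.664% of all copies fell. A looser threshold of 0.10 took 13 copies (9.29%, against 8.14% of all copies), 3 of them higher (2.14%, against 4.04%) and 10 lower (7.14%, against 4.1%). In bulk explants, fewer cells of a type and less RNA per cell cannot be told apart.

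The zic1 and control arrays did not overlap for rab40b.L. Its copy value was 2.11 and 1.89 with zic1 and 0.660, 0.625 and 1.00 in the control arrays, a difference of 1.42 ± 0.22 (limma adjusted p = 0.0471). Both of its probe sets showed the rise, at 1.54 ± 0.22 (adjusted p = 0.0481) and 1.30 ± 0.23, the second short of the threshold (adjusted p = 0.0687). Control 3 was the highest of the controls in each. Within the first set of arrays the difference was 1.72 and within the second 0.91. The related rab40c.S, with 3 probe sets, differed by -0.07 ± 0.08. Among the alternative analyses, median centring and the 0.10 threshold leave the adjusted p of rab40b.L as it was in the main fit. The difference of rab40b.L ran from 1.30 to 1.64 with single arrays left out. With log2(value + 1), which shrinks ratios by construction, it was 0.77. The adjusted p of rab40b.L passed 0.05 in 6 of 16 alternative analyses, with 0.00479 (limma) as its lowest. It did not pass without zic1 replicate 1 (0.482), zic1 replicate 2 (0.223), control 1 (0.0876) or control 2 (0.150).

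Sec61a1.S read 0.684 and 0.669 with zic1 and 1.13, 1.08 and 1.00 in the controls, again without overlap. The difference was -0.66 ± 0.09 (limma adjusted p = 0.0366). Within the first set of arrays it was -0.69 and within the second -0.58. Both sets are parts of the arrays that picked this copy out, so their likeness is no separate support. With log2(value + 1), which shrinks ratios by construction, the difference was -0.30. With single arrays left out the difference ran from -0.71 to -0.62. It did not pass when zic1 replicate 1 (limma adjusted p = 0.402), zic1 replicate 2 (0.218), control 1 (0.0779) or control 2 (0.136) was left out. The adjusted p ran from 0.0127 to 0.402 over 16 alternatives, with 8 past the threshold. Median centring and the 0.10 threshold, both among the 8, leave the adjusted p as it was in the main fit. The channel partners of sec61a1.S, sec61b.L (-0.29 ± 0.13) and sec61g.L (-0.25 ± 0.11), did not pass. Their zic1 arrays, at 0.811 and 0.950 and at 0.866 and 0.951, lay below every control array. Both copies were lowest in zic1 replicate 1 and highest in control 2, at 1.24 and 1.20. Sec11a.L, of the signal peptidase that trims entering proteins, differed by -0.22 ± 0.16. Sec63.L (-0.04) and sec63.S (-0.05), which help proteins through the channel from the ER side, lay near 0. Sec62.S, of the same auxiliary complex, was the 1 copy of the 7 for ER entry with a positive difference, at 0.21 ± 0.09 (adjusted p = 0.226). It read 1.10 and 1.09 against 0.950, 1.00 and 0.888.

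**Figure D1:**
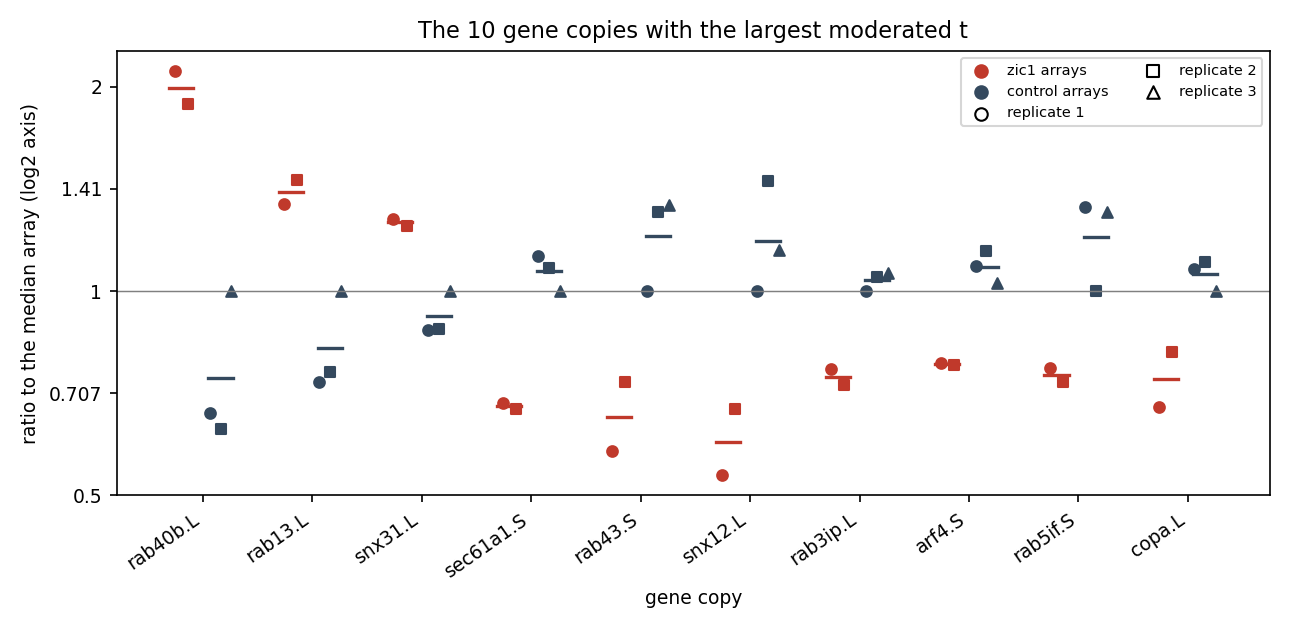
Ratio to the median array (log2 axis) of the 10 gene copies with the largest moderated t, in every array; circles, squares and triangles are replicates 1, 2 and 3, and bars are group means on the log2 scale. The zic1 and control arrays do not overlap for any of the 10, of which rab40b.L and sec61a1.S passed the threshold. The 10 were picked by the same comparison, which favours copies without overlap, and 42.1% of all gene copies do not overlap.

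Most members lay slightly lower in the zic1 explants. The difference was below 0 in 102 of 140 copies (72.9%), against 56.1% of all gene copies, and the median was -0.10, against -0.03 for all copies. Most of these differences were small: 83 of 140 copies (59.3%) differed by less than 0.2, against 60.1% of all copies, and the median SE of a member was 0.11. The groups did not overlap in 60 copies (42.9%), where the background was 42.1%. Of these 60, 47 were lower (33.6% of members, against 24.8% of all copies) and 13 higher (9.29%, against 17.3%). At an unadjusted p under 0.05, 28 copies were lower (20.0%, against 13.7% of all copies) and 5 higher (3.57%, against 9.06%). These shares are descriptions, with no test of the list. Zic1 replicate 1 held the lowest value of the 5 arrays in 61 copies (43.6%, against 30.0% of all copies), and control 2 the highest in 60 (42.9%, against 25.5%). Within the first set of arrays the members' median difference was -0.13 and within the second -0.05, against -0.03 and -0.02 for all copies. In 99 of 140 copies (70.7%) both sets had the same sign, as they did in 66.2% of all copies.

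**Figure D2:**
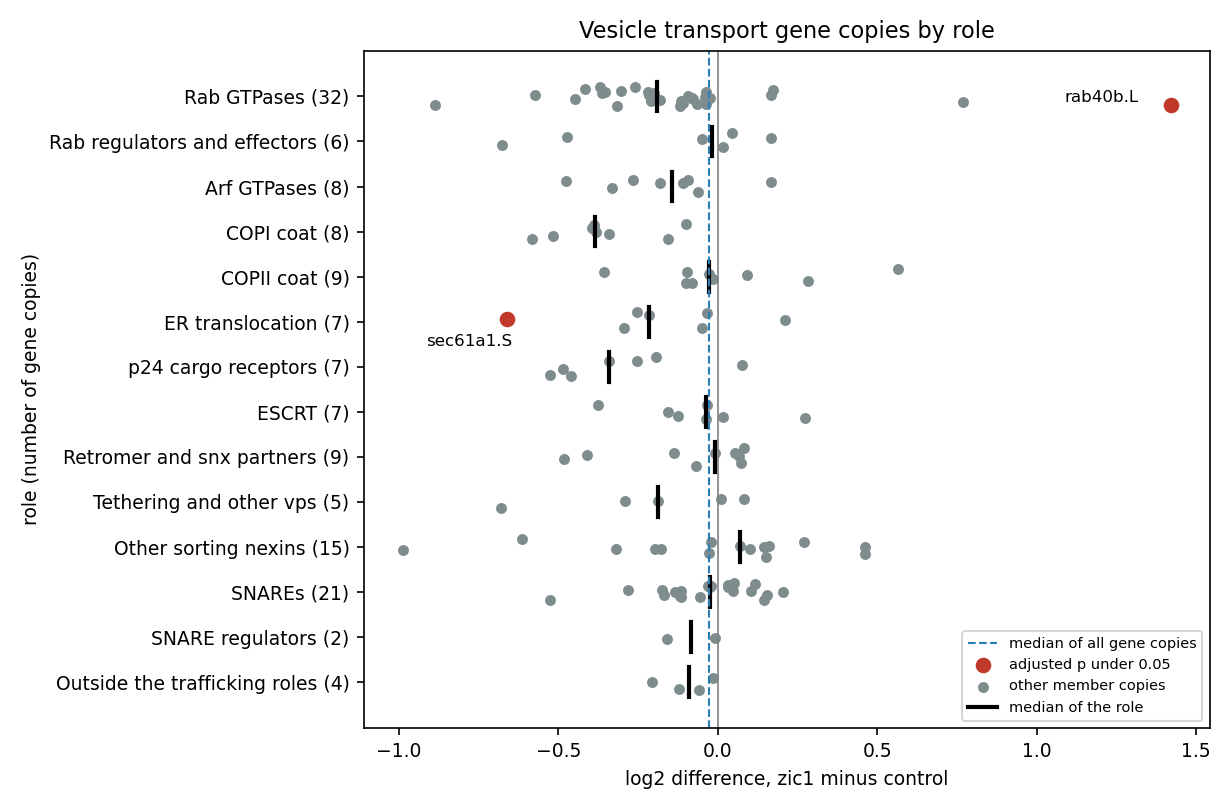
Log2 difference, zic1 minus control, of each of the 140 gene copies, by role, with the number of copies in brackets; black bars are role medians and the dashed line is the median of all gene copies (-0.03). With all 5 arrays COPI and p24 copies have the lowest medians, and rab40b.L lies apart at 1.42.

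Of the 32 copies of Rab GTPases, 28 lay below 0 and 1 passed the threshold. The groups did not overlap in 14 (43.8%, against 42.1% of all copies). Of these 14, 12 were lower (37.5% of the Rab copies, against 24.8% of all copies). The other 2 of the 32 were higher without overlap, as were 17.3% of all copies. The Rab median was -0.19 with all arrays, -0.12 without zic1 replicate 1 and -0.13 without control 2. After rab40b.L, rab13.L was the highest, a Rab of junction assembly in epithelia. It read 1.34 and 1.46 with zic1 and 0.733, 0.760 and 1.00 in controls, a difference of 0.77 ± 0.16 that did not pass (adjusted p = 0.0727, limma). Without control 3 it was 0.91 and passed (adjusted p = 0.0340, limma). Rab13.L passed with no other single array left out, and in 3 of 16 alternatives. Among the 3 was the fit with a block for each replicate number. Control 3 has its own block there, which gives the same difference as leaving control 3 out. The difference of rab13.L ran from 0.68 to 0.91 with single arrays left out. Rab11a.S, of recycling endosomes, and rab7a.L, of late endosomes, had the only other positive differences among the Rabs (0.17 each), with overlapping groups.

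At the other end was rab43.S, a Rab of the Golgi and of receptor export. It read 0.581 and 0.733 with zic1 and 1.00, 1.31 and 1.34 in controls, a difference of -0.89 ± 0.17 (limma adjusted p = 0.0703). Within the first set of arrays the difference was -0.98 and within the second -0.87. Rab1a.L, which acts between ER and Golgi, differed by -0.45 ± 0.12, with all 4 of its probe sets between -0.56 and -0.21. Rab8a.S, of traffic to the plasma membrane and cilium, differed by -0.35 ± 0.10. Rab5b.L of early endosomes (-0.30 ± 0.11) and rab11b.1.S of recycling endosomes (-0.32 ± 0.09) also had zic1 arrays below every control array. None of these 4 passed. The early endosome Rabs rab5a.L (-0.08), rab5d.L (-0.09) and rab5c.L (-0.26) overlapped between groups. Rab27a.S (-0.57 ± 0.28) and rab27a.L (-0.36 ± 0.25), of secretory granule release, read 1.68 and 1.71 in control 2 and 0.679 to 1.17 in the other arrays. Rab18.S, of ER and lipid droplets, likewise stood at 1.55 in control 2, and at 0.834 to 1.01 elsewhere.

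Genes named after a Rab but not themselves Rab GTPases, grouped here by symbol, were split. Rab3ip, also known as Rabin8, activates Rab8. Its .L copy read 0.768 and 0.727 with zic1 and 1.00, 1.05 and 1.06 in controls, a difference of -0.47 ± 0.08 that fell just short (limma adjusted p = 0.0559). The .S copy read 0.959 to 1.00 in all 5 arrays. Rab5if.S differed by -0.68 ± 0.15 (adjusted p = 0.0785), with 0.771 and 0.735 with zic1 and 1.33, 1.00 and 1.31 in controls, while rab5if.L differed by 0.17 ± 0.17 the other way. The Rab11 effectors rab11fip5.L (0.05) and rab11fip4l.L (-0.05) lay near 0.

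Among the Arf GTPases, 7 of 8 copies lay below 0 and 0 passed. Arf4, a Golgi Arf that carries rhodopsin towards the cilium in frog photoreceptors, was the lowest in both copies. Arf4.S read 0.784 and 0.778 with zic1 and 1.09, 1.14 and 1.03 in controls (-0.48 ± 0.08; limma adjusted p = 0.0596), and its 2 probe sets gave -0.55 and -0.41. Arf4.L differed by -0.33 ± 0.10, also without overlap. Arf1.L (-0.18), which recruits COPI, overlapped with the controls, as did arf3.S (-0.06) and arf5.L (-0.09). Arf6 works at the plasma membrane. Arf6.S differed by -0.26 ± 0.12, arf6.2.S by -0.11 and arf6.2.L by 0.17 ± 0.12, and none of them passed.

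The COPI coat had the lowest median of the roles with all 5 arrays, -0.39, with all 8 copies below 0 and 0 past the threshold. The p24 median was the lower of these 2 without control 1, without control 2, with cyclic loess normalization and in the fit that took each set of arrays as its own block. In 6 of the 8 the groups did not overlap (75%, all of them lower, against 24.8% of all copies that were lower without overlap). Copa.L, the alpha subunit, read 0.674 and 0.814 with zic1 and 1.08, 1.10 and 1.00 in controls, a difference of -0.52 ± 0.11 (limma adjusted p = 0.0779). Cope.S, the epsilon subunit, read 0.683 and 0.852 against 1.00, 1.39 and 1.08 (-0.58 ± 0.18; adjusted p = 0.131). Copb1.L, the beta subunit, differed by -0.39 ± 0.10 (adjusted p = 0.0974). Copz1.L (-0.34) and copz1.S (-0.39), copies of the zeta subunit, and copg1.L of the gamma subunit (-0.38, 3 probe sets from -0.66 to -0.21) were similar in size. Copb2.S (-0.16) and copg2.S (-0.10) were nearest to 0.

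The p24 cargo receptors followed, with a median of -0.34, 6 of 7 copies below 0 and 0 past the threshold. Tmed2.L, measured by 5 probe sets, read 0.737 and 0.812 with zic1 and 1.05, 1.31 and 1.01 in controls. Its difference was -0.53 ± 0.14 (limma adjusted p = 0.109), with the probe sets between -0.60 and -0.47. Tmed7.L (-0.49), tmed4.S (-0.46), tmed4.L (-0.34), tmed9.S (-0.25) and tmed10l.L (-0.19) were also negative, and tmed5.L differed by 0.07 ± 0.12.

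The COPI and p24 values depended on particular arrays. Over these 15 copies, control 2 was the highest of the 5 arrays in 14 and zic1 replicate 1 the lowest in 14. The median log2 ratio of the COPI copies was -0.31 and -0.07 with zic1 and 0.00, 0.38 and 0.04 in controls, and that of the p24 copies -0.22 and -0.06 against 0.00, 0.36 and 0.11. Without control 2 the COPI median was -0.22 and the p24 median -0.28, and without control 1 they were -0.45 and -0.48. Without zic1 replicate 1 they were -0.27 and -0.23. Every COPI copy stayed below 0 with any 1 array left out. The ER entry median also moved, from -0.22 with all 5 arrays to -0.08 without zic1 replicate 1 and -0.11 without control 2. Without control 2, 4 of the 7 ER entry copies lay below 0. Among markers of other tissues, 5 copies of 3 cement gland genes had a mean log2 ratio of 0.49 in control 2 and of -0.15 to 0.06 elsewhere. The 8 copies of 6 epidermal genes were at 0.31 in control 2, 0.29 in control 3, -0.33 in control 1 and -0.49 and -0.0031 with zic1. Ciliated cell and ionocyte genes (5 copies of 4 genes) were at 0.29 in control 2 and -0.24 to 0.03 elsewhere. Endoderm genes (11 copies of 7 genes) were at 0.69 in control 3 and -0.31 to 0.02 elsewhere, and mesoderm and muscle genes (7 copies of 6 genes) at 0.50 and 0.70 with zic1 and -0.23 to 0.07 in controls. The 1 secretory cell gene found of 3 listed, foxa1, was at 0.00 and 0.30 with zic1 and at -0.53, -0.26 and 0.15 in controls. The part of these tissues in the COPI and p24 values was not tested.

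**Figure D3:**
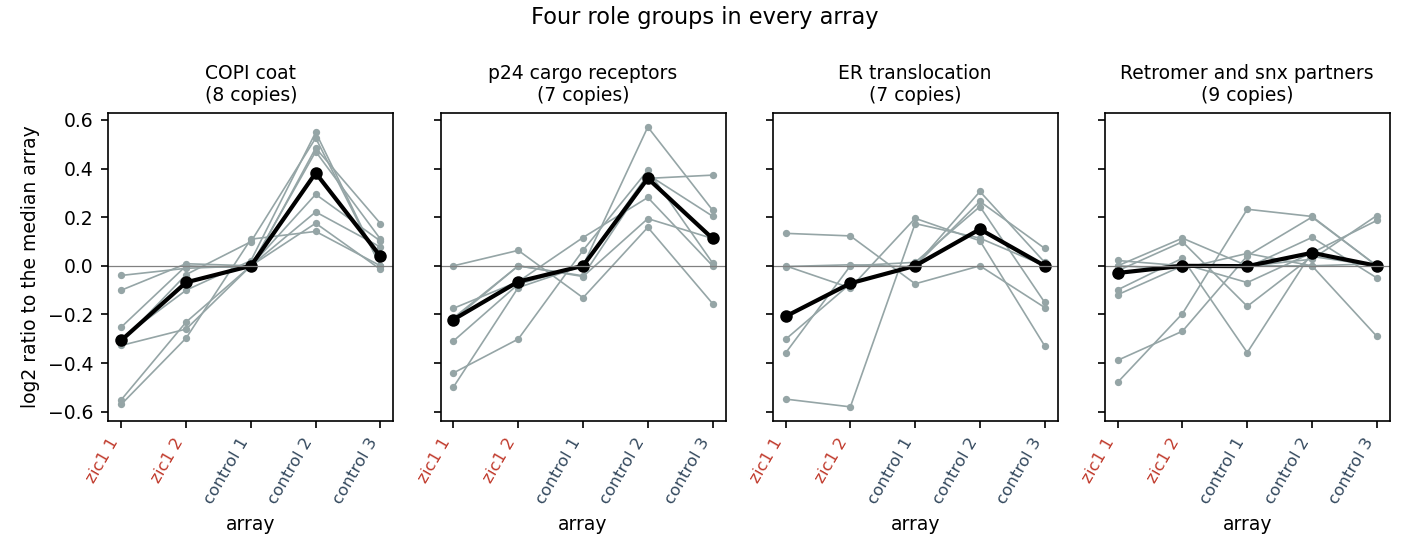
Log2 ratio to the median array in each of the 5 arrays for 4 roles; thin lines join the values of 1 gene copy and the thick line is the median. COPI and p24 copies peak in control 2 (medians 0.38 and 0.36) and are lowest in zic1 replicate 1 (-0.31 and -0.22), while retromer medians stay between -0.03 and 0.05.

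COPII genes had no common direction: 3 of 9 copies lay above 0 and 6 below, with a median of -0.03 and 0 past the threshold. Sec24a.S, a cargo-binding subunit of the inner coat, had the highest difference. It read 1.32 and 1.33 with zic1 and 0.990, 0.723 and 1.00 in controls (0.57 ± 0.16; limma adjusted p = 0.120). Sec16a organises ER exit sites. Its .S copy differed by 0.28 ± 0.11, without overlap, and its .L copy by -0.10 ± 0.09. Sec13.S, of the outer coat and also of the nuclear pore, was the lowest at -0.36 ± 0.15, reading 0.827 and 0.979 against 1.14, 1.34 and 1.00. The other outer coat gene, sec31b, differed by -0.02 (.L) and -0.10 (.S), and sec24c.S by 0.09.

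SNAREs mostly lay near 0. Of their 21 copies, 18 differed by less than 0.2, 9 lay above 0 and 12 below, the median was -0.02, and 0 passed. Sec22b.S, a SNARE between ER and Golgi, was the lowest, reading 0.783 and 0.841 with zic1 and 1.11, 1.45 and 1.00 in controls (-0.53 ± 0.17; limma adjusted p = 0.147). Stx5.L, the Golgi syntaxin that pairs with it, differed by -0.28 ± 0.10, without overlap. The highest by its moderated t was stx10.L (0.16 ± 0.08). Vamp1.L had a larger difference (0.20 ± 0.14), but its 2 probe sets gave 0.45 and -0.04. The neuronal exocytosis SNAREs snap25.L (-0.03), snap25.S (0.05) and vamp2.L (0.03) lay near 0, and vamp2.S stood at 1.44 in control 3 and 0.961 to 1.00 elsewhere. The SNARE regulators stxbp3.L (-0.16 ± 0.12) and stxbp6.L (-0.01 ± 0.07) overlapped between groups.

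At endosomes, retromer and its sorting nexin partners had a median of -0.01, with 4 copies above 0, 5 below and 0 past the threshold. The vps subunits vps26a.L (0.07), vps26a.S (-0.01), vps26b.S (0.05), vps29.S (-0.07) and vps35.S (0.07) all overlapped between groups. The membrane-bending partners were less alike. Snx6.L, with 4 probe sets from -0.69 to -0.33, differed by -0.48 ± 0.13. Snx2.S read 0.764 and 0.830 against 1.03, 1.15 and 1.00 (-0.41 ± 0.10; limma adjusted p = 0.0945). Snx5.L differed by -0.14 and snx1.L by 0.08, with overlap.

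The other sorting nexins had both the lowest difference of all members and 1 of the highest. Snx12.L, an endosomal sorting nexin, read 0.535 and 0.669 with zic1 and 1.00, 1.45 and 1.15 in controls. Its difference was -0.99 ± 0.19, 1.98-fold lower (95% interval 1.44 to 2.74), and did not pass (limma adjusted p = 0.0669). Snx12.S ran the same way at -0.61 ± 0.23, with 1.69 in control 2. Snx31.L, which sorts integrins in mammals, read 1.28 and 1.25 with zic1 and 0.877, 0.880 and 1.00 in controls (0.46 ± 0.09; adjusted p = 0.0730). When control 3 was left out it passed, at 0.52 (limma adjusted p = 0.0473). Snx31.L passed with no other single array left out, and in 3 of 16 alternatives. Among the 3 was again the fit with a block for each replicate number, which repeats the difference without control 3. The difference of snx31.L ran from 0.43 to 0.52 with single arrays left out. Snx10.L also differed by 0.46, but with 1.33 and 1.00 in the zic1 arrays its SE was 0.19. Of these 15 copies, 8 lay above 0, the median was 0.07, and 0 passed.

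ESCRT genes, which sort ubiquitinated cargo into multivesicular bodies, had a median of -0.04 over 7 copies and 0 calls. Vps36.L, of ESCRT-II, was the highest (0.27 ± 0.12), and vps28.S, of ESCRT-I, the lowest (-0.38 ± 0.15). The ATPases vps4a.L (-0.03) and vps4b.S (-0.15) overlapped between groups, and the 2 vps4b.S probe sets differed in sign (0.06 and -0.37). Of the remaining vps genes, vps11.S, a core subunit of the HOPS and CORVET tethers, read 0.578 and 0.796 against 1.16, 1.11 and 1.00 (-0.68 ± 0.16; limma adjusted p = 0.0879). Vps18.S, another core subunit of the same tethers, differed by 0.01 ± 0.08 over 3 probe sets. Vps26c.L (-0.29 ± 0.10) and vps35l.S (0.08 ± 0.16) belong to the retriever complex. The rule also caught 4 copies that were put in none of the roles above: vps72.L and vps72.S of a chromatin remodelling complex, the lipid-binding sec14l1.L and the clathrin assembly gene snap91.S. They lay between -0.21 and -0.02. Leaving them out kept the median of the members at -0.10.

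**Figure D4:**
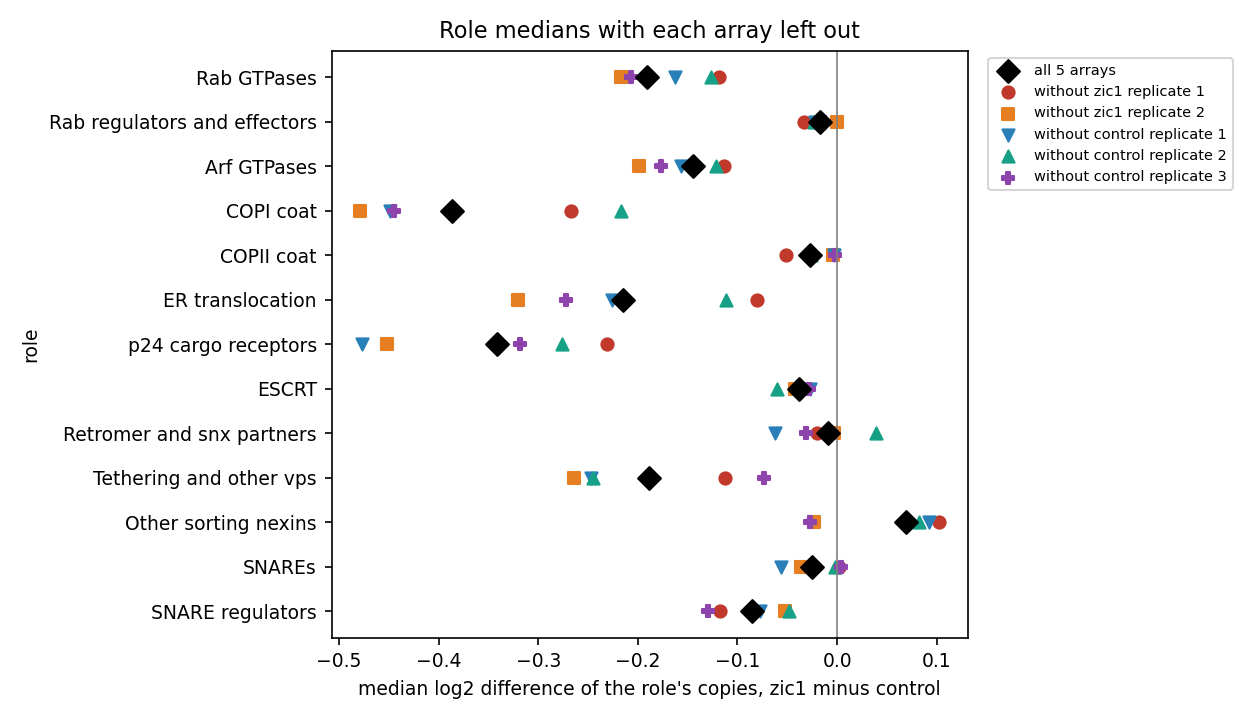
Median log2 difference of each role's gene copies with all 5 arrays (diamonds) and with each array left out. The COPI median ranges from -0.48 to -0.22 and stays below 0, while the medians of retromer, SNAREs and the other sorting nexins lie on both sides of 0.

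Both copies of a gene were measured for 23 names, and in 14 of them the copies had the same sign, 60.9%, against 64.4% of 1017 such genes on the array. The largest gap was in rab5if, where .L minus .S was 0.84 ± 0.24, followed by rab3ip (-0.49 ± 0.11), sec22b (0.39 ± 0.11) and sec16a (-0.38 ± 0.14). Tested within arrays over the 1017 genes, the difference between copies passed in 0 of 23 members (limma adjusted p = 0.126 for rab5if and 0.0829 for rab3ip), against 2.26% of all genes, and 5 members (21.7%) had an unadjusted p under 0.05, against 21.6% of all genes. Short probes can read both copies. Of the 182 member probe sets, 7 carry the array's mark for cross-hybridising probes and 2 that for probes shared by transcripts. Of 29 copies with several probe sets, 20 had probe sets of 1 sign, and the widest spread was in stx19.S (-0.05 to 0.46).

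**Figure D5:**
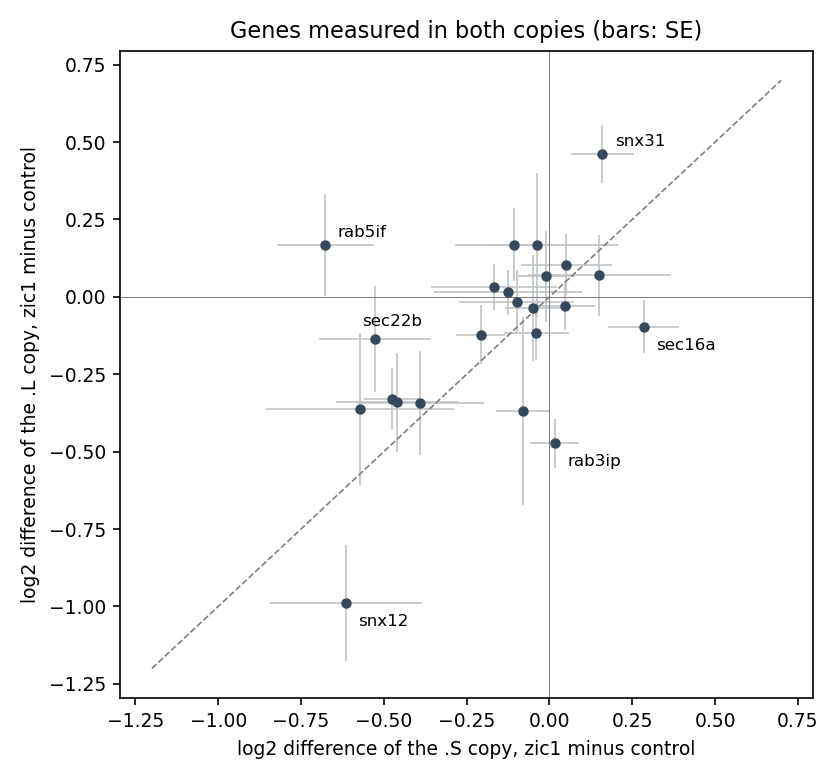
Log2 difference of the .L copy against that of the .S copy for the 23 genes measured in both, with SE bars; the dashed line marks equal values. Snx12 is low in both copies, while rab3ip is low in .L and rab5if in .S.

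A wider list of traffic genes that the rule did not take held 125 copies, among them clathrin and its adaptors, exocyst and TRAPP tethers, ESCRT-III, Golgi proteins, further COPI, COPII and SNARE genes, Arf-like GTPases, and regulators of Rabs and Arfs. Its median difference was -0.10, with 92 copies below 0 (73.6%, against 56.1% of all copies). Past the threshold were 2 higher copies (1.6%, against 1.26% of all copies) and 1 lower copy (0.8%, against 0.664%). Epn2.L, an epsin of clathrin-coated pits, rose by 0.91 ± 0.10 (limma adjusted p = 0.0271). Tbc1d10a.L, a Rab GTPase-activating protein, rose by 0.70 ± 0.11 (adjusted p = 0.0492). Ap1g2.L, a gamma subunit of the AP-1 clathrin adaptor, fell by 0.81 ± 0.11 (adjusted p = 0.0375).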

How the data were processed

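RNA from 5 explant samples was hybridised to Affymetrix Xenopus laevis arrays. GCOS and RMA are listed, with no version or role, in the submitters' processing notes. What was deposited is a linear ratio per probe set and array; the 5 ratios of each of the 15490 probe sets tested have a median of exactly 1, a centring found from the values. From 15572 rows, 81 Affymetrix controls and 1 probe set without values in every array were left out. Symbols came from the platform annotation, and 139 of 140 member genes matched the RefSeq gene table. Log2 ratios entered limma 3.58.1 (R 4.3.3; lmFit and eBayes, with 3 residual and, for gene copies, 2.59 prior degrees of freedom), fitted on all probe sets and on the mean log2 of all 7530 gene copies, with Benjamini-Hochberg adjustment over each table and a threshold of 0.05. The members, lists and roles were chosen with earlier results of these data known. Named genes are those past the threshold, the highest and lowest moderated t of each role, the other copy and every other probe set of a gene past the threshold, and up to 10 copies with adjusted p under 0.10; other names were chosen after their values were seen. Absolute signal was not kept, so no filter on dim probe sets was possible, and precision is limited by how few arrays there are. On simulated data for the 7530 gene copies, the fit called 85 of 100 copies shifted by 1 (log2) and 97 of 100 shifted by 2. It also called 13 that were not shifted. For the 15490 probe sets the fit called 66 of 100 shifted by 1, 93 of 100 shifted by 2, and 8 that were not shifted. The simulated noise was independent between copies and arrays, without the 2 sets of arrays, so these counts need not hold for the real arrays. Shifts smaller than 1 were not simulated. Plots used matplotlib 3.10.9 in Python 3.11.15.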

Additional observations from a re-analysis of the deposited data

How the results depend on the processing

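The 2 calls depended on the arrays and the model. Without control 1 or control 2, limma called 0 member copies, and without control 3 it called 4. With either zic1 array left out, neither of the 2 calls held. With 1 zic1 array left, its spread was taken to be that of the controls. The share of all copies called is not given for every fit, so counts without it are not set against the background. Limma also called 0 copies and 0 probe sets after quantile normalization, after cyclic loess and without variance moderation. It called 0 of each with a block for the 2 sets of arrays too, an alternative chosen after seeing the data. The robust prior left 1 copy and 1 probe set, the median over probe sets 1 copy, array weights 11 copies and 12 probe sets (7.77% and 6.04% of all), and an adjusted p under 0.10 gave 13 copies and 18 probe sets, against 8.14% of all copies and 6.8% of all probe sets. With the replicate block, 29 copies and 43 probe sets passed, but so did 18.6% of all copies and 17.4% of all probe sets, with 1 residual degree of freedom. Control 3 has a block of its own in that fit. The differences therefore equal those without control 3, and these 2 alternatives are not separate. The labels say nothing of what a replicate number shares. Deviations from the group means correlated at 0.32 (replicates 1) and 0.28 (replicates 2). With 2 zic1 arrays the zic1 deviations mirror each other, so the 2 correlations are not separate evidence and do not settle a pairing. The median difference of the members stayed below 0, from -0.13 to -0.07 with single arrays left out, and was -0.054 with log2(value + 1), which shrinks ratios by construction. Of 493 values of named copies and probe sets under alternatives, 2 changed sign, both in copies near 0: stxbp6.L without zic1 replicate 2 (0.0019; -0.021 to 0.0019 with single arrays left out) and vps35l.S without control 1 (-0.048; -0.048 to 0.22). A further 35 lost and 40 gained the threshold. Median centring changed nothing, each array's median log2 being at 0. Leaving out variance moderation, the robust prior and the 0.10 threshold also keep every difference as it was. No sign could change under these alternatives, and values that could not change are among the 493. Of the values that gained the threshold, 11 did so through the 0.10 threshold and 16 with the replicate block.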
